A study of Mus musculus with 6 samples.

Results

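The genes described here encode the DNA replication machinery, 42 genes in all of the 23366 gene symbols measured. They were taken by name, as the genes for origin licensing, the replicative helicase, the polymerases, the sliding clamp with its loader, and nucleotide supply. All 42 were found, and the rule that chose them used gene names and no RNA level. RNA was sequenced from epithelial cells of the submandibular gland, a major salivary gland, taken at 12 weeks of age. The genotypes were p63 knockout (3 libraries) and p63 wild type (3 libraries), and no treatment was named for either group. The gene Trp63 makes p63, a regulator of transcription that basal cells of epithelia carry, and the study asked how it keeps gland progenitor cells able to proliferate. The labels do not name a Cre driver, a deleted exon, a strain, or how many mice gave each library.

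Before S phase, the origin recognition complex marks replication origins, and Cdc6 and Cdt1 load the ring-shaped MCM helicase there. At the start of S phase the Cdc7 kinase and other factors add Cdc45 and the GINS complex to the ring, which then opens the DNA for the polymerases. Most genes of this machinery are switched on by E2F transcription factors as a cell commits to divide, whereas several subunits of the origin recognition complex, the clamp loader and the single-strand binding protein are made in resting cells too. The adult submandibular gland renews slowly, so few of its cells are in S phase at any time.

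Levels are in TPM, a transcript abundance corrected for gene length and scaled to 1000000 per library, so genes can be compared with each other. Per library 10634 to 11235 genes were at 1 TPM or more, and its top 50 genes held 69.2% to 80.3% of the TPM. Knockout library 3 stood apart from the rest, with the fewest genes at 1 TPM and the largest share for the top 50. Relative to the wild-type mean, the median of all 11268 genes tested was 0.27, 0.24 and -0.29 on the log2(TPM + 1) scale in knockout libraries 1, 2 and 3. Trp63 measured 1.59, 0.816 and 1.76 TPM in knockout libraries 1, 2 and 3, against 3.48, 1.85 and 3.68 TPM in wild type. The knockout libraries were the 3 lowest, but Trp63 missed the threshold (log2 fold change -0.74, SE 0.27, adjusted p = 0.269). The 6 epithelial markers were present in all libraries. Basal markers summed to 28.9, 13.8 and 59.8 TPM in the knockout against 144 to 164 TPM, myoepithelial markers to 220, 120 and 127 TPM (220.4, 120.4 and 126.7) against 308 to 404 TPM. Markers of the granular convoluted tubule, a duct segment of this gland, summed to 17026, 7040 and 10953 TPM (7040.4 in library 2) against 48463 to 65323 TPM, with Ren1 listed at 0 throughout. Passing lower were Egf, Klk1b16, Klk1b24 and Klk1b27 of the tubule, basal Krt14, myoepithelial Cnn1 and fibroblast Col3a1 (adjusted p 0.0329 to 0.0467). The part of these marker differences in the levels of the replication genes was not tested.

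Most replication genes were low in this tissue, and no single member passed the test over all genes. Of the 37 fold changes, 31 were above 0 and 6 below, and for 21 members the groups overlapped. Summed over all 42, their level was 312, 320 and 400 TPM (311.8, 319.9 and 399.7) in knockout libraries 1, 2 and 3, against 216, 195 and 228 TPM in wild-type libraries 1, 2 and 3. That is 344 ± 48.6 TPM against 213 ± 16.8 TPM (SD, n = 3 each), or 1.61 times as much, and each knockout library lay above each wild-type library. In limma's test 0 of the 37 members tested passed an adjusted p of 0.05, where 44 of 11268 genes did (0.39%), 8 of them higher (0.071%). At an unadjusted p under 0.05 there were 11, all higher in the knockout, against 562 higher genes among all tested (4.99%). The lowest adjusted p among members belonged to Gins1 (0.0653), followed by Mcm7 (0.0768) and Cdt1 (0.0937).

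All 3 knockout libraries lay above all 3 wild-type libraries for 18 of the 42 members when no filter was applied, against 4.93% of the 18137 genes with any signal. Among the 37 members that passed the filter of 1 TPM in at least 3 libraries there were 16, against 5.42% of genes. The reverse, all knockout libraries below all wild-type libraries, held for 0 members, although it held for 15.6% of genes tested and for 13.6% without a filter. Of the members tested, 32 were at 1 TPM or more in all 6 libraries. Cdt1 alone passed the filter with no wild-type library at 1 TPM, so its place among the genes tested rests on the knockout group. Orc1, Cdc6, Mcm10, Cdc7 and Pole were under the filter. The median log2 fold change was 0.51 over the 37 members and 0.50 over all 42 without a filter, beside 0.09 over all genes tested.

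**Figure D1:**
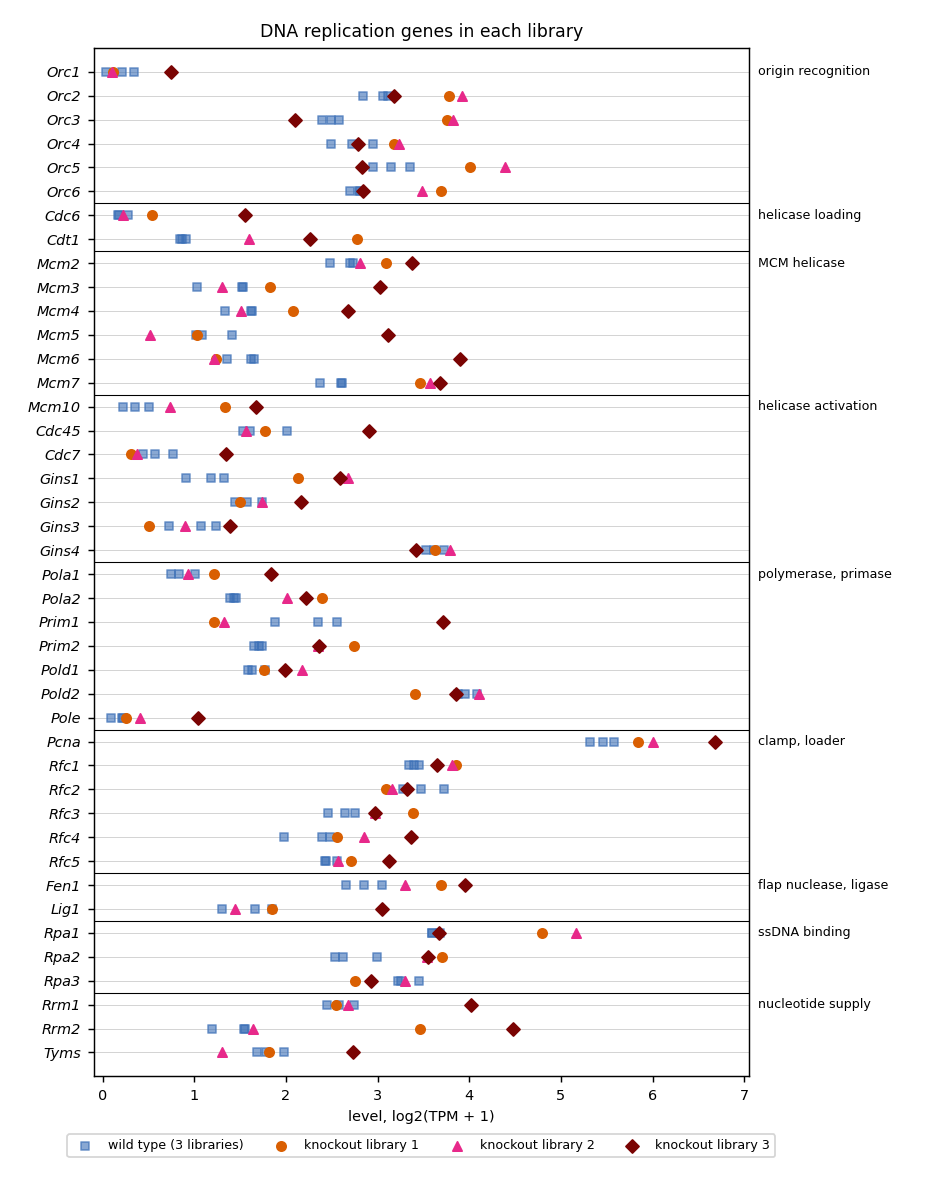
Level of each of the 42 replication genes on the log2(TPM + 1) scale (x axis), in rows grouped by role. Blue squares are the 3 wild-type libraries, and the circle, triangle and diamond are knockout libraries 1, 2 and 3. The dark diamonds lie at the right for the 6 MCM genes, while the circles and triangles lie at the right for Orc2 to Orc6.

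The 3 knockout libraries did not carry the excess in the same members. In knockout library 3, 34 of the 42 members exceeded every wild-type library, where 11.5% of genes with any signal did. In knockout library 1 it was 26 of 42, against 46.1% of genes, and in knockout library 2 it was again 26, against 47.1%. Knockout library 3 was the highest of all 6 libraries for 24 of 42 members, against 6.31% of genes with any signal. It was at least 2 times as high as every other library for 12 of 42, against 2.17%. Knockout libraries 1 and 2 together lay above the other 4 libraries for 8 of 42 members, fewer in proportion than the 34.2% of genes that did so. Among the 37 members tested, 23 exceeded every wild-type library in knockout library 1 (56.5% of genes tested), 24 in library 2 (55.2%) and 29 in library 3 (9.52%). Below every wild-type library were 6 in library 1 (26.7% of genes), 5 in library 2 (27.9%) and 5 in library 3 (66.9%). Library 3 was the highest of all 6 for 19 of the 37 (3.73% of genes) and at least 2 times as high for 8 (0.39%), while libraries 1 and 2 together led for 8 (45.9%). These patterns were picked out after the values were seen.

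**Figure D2:**
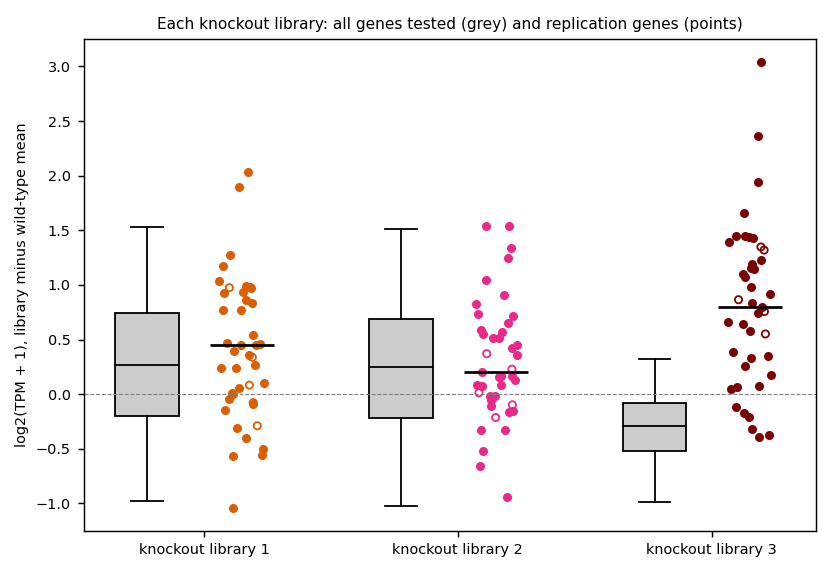
Difference of each knockout library from the wild-type mean on the log2(TPM + 1) scale (y axis). Grey boxes show all 11268 genes tested (median, quartiles, whiskers at the 5th and 95th percentiles), points the replication genes (open where under the filter), and bars the median of the 37 tested. The members' median was 0.45, 0.20 and 0.80 in knockout libraries 1, 2 and 3, against 0.27, 0.24 and -0.29 for all genes.

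When the libraries were rescaled so that their typical gene agreed (median-of-ratios scaling), the median of all genes lay at 0.03, 0.03 and 0.02 in knockout libraries 1, 2 and 3. The members' median then lay at 0.20, 0.04 and 1.10. The gap between members and all genes was thus small in knockout libraries 1 and 2 under both scalings, and large in knockout library 3 under both.

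E2F motifs were searched in the promoters of the members, as a sequence feature that the choice of members did not use. Promoters came from RefSeq on GRCm38.p6, from 250 bases before to 50 bases after each start site, with 44 windows for 35 of the 42 members. Mcm4, Gins1, Gins2, Gins4, Prim2, Pole and Rfc2 had no entry. The E2F motifs were TTTCCCGC, TTTGGCGC and TTTCGCGC on either strand, and matches may overlap each other. At least 1 was found in 13 of 44 member windows (29.5%), beside 1.84% of all 32851 windows. CCAAT on either strand was found in 56.8% of member windows and 37.4% of all windows. TTTGAA, the core of an element of mitotic genes, on either strand, was found in 15.9% and 17.9%. Many of the members are known E2F targets.

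The motif occurred both among members that were highest in knockout library 3 and among the remaining members. It was found in 9 of the 21 members with a promoter entry that were highest in knockout library 3, namely Cdc6, Gins3, Lig1, Mcm3, Mcm5, Mcm6, Mcm7, Orc1 and Pola1. It was found in 4 of the 14 others, namely Cdt1, Orc3, Pold1 and Rfc3. Rrm2, Pcna and Rrm1 had none of these exact letters in the window. The 170 bases before the start site are shown for the 3 members with the largest excess in library 3 that also held a match, Mcm6, Mcm5 and Cdc6, and for Orc3, which held a match and was lowest in that library. Capitals mark the E2F motifs, and each sequence runs 5′ to 3′ on the strand of the gene.
Mcm6, chr1:128359706-128359875, minus strand: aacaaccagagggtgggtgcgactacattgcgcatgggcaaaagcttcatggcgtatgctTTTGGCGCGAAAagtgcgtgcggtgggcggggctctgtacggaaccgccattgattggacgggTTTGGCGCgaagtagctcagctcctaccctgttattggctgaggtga
Mcm5, chr8:75109339-75109508, plus strand: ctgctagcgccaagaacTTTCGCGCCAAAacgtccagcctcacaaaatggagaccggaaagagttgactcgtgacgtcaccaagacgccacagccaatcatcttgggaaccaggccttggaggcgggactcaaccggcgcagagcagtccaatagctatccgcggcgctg
Cdc6, chr11:98907981-98908150, plus strand: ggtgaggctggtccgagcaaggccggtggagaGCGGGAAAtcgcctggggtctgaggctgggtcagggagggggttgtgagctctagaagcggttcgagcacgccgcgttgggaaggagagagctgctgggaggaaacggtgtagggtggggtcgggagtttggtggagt
Orc3, chr4:34614943-34615112, minus strand: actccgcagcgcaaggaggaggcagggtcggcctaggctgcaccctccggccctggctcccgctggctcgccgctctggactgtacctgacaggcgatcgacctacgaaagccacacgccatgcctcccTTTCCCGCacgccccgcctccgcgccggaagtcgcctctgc

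In Mcm6 a forward and a reverse match overlapped in 1 stretch, and a second forward match lay nearer the start site, 47 bases before it. In Mcm5 a forward and a reverse match overlapped 153 bases before the start site. Cdc6 had 1 match, on the opposite strand 138 bases before the start, and Orc3 had 1 match, on its own strand 41 bases before the start. Mcm6 and Mcm5 were 6.54 and 4.59 times as high in knockout library 3 as in the next library, Cdc6 4.23 times, and Orc3 0.249 times as high as the highest library. A match describes the letters and does not show that an E2F protein bound there in these cells.

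The origin recognition complex, which binds origins through the cell cycle, was measured through 6 subunits. For 5 of them, Orc2 to Orc6, knockout libraries 1 and 2 lay above the other 4 libraries, as they did for 45.9% of genes tested. Orc5, its most abundant subunit here, measured 15.1, 20.00 and 6.09 TPM in the knockout and 7.82, 6.70 and 9.25 TPM in wild type. Knockout library 3 was thus below every wild-type library and the other two above them, and the log2 fold change was 0.59 (SE 0.40, adjusted p = 0.462). Orc2 measured 12.7, 14.1 and 8.05 TPM against 7.35, 6.18 and 7.68 TPM. Orc6 measured 11.9, 10.2 and 6.16 TPM against 5.95, 5.49 and 6.004 TPM. For both Orc2 and Orc6 the groups did not overlap, but knockout library 3 lay just above the highest wild-type library. Orc3 (12.5, 13.2 and 3.28 TPM against 4.61, 4.24 and 4.98 TPM) followed Orc5, with library 3 lowest of all. Orc4 differed less, with knockout libraries 1 and 2 at 8.02 and 8.41 TPM and the other 4 libraries at 4.64 to 6.70 TPM. Orc1, the subunit whose level follows the cell cycle most closely, was the exception, at 0.0839, 0.0693 and 0.676 TPM in the knockout and 0.0227 to 0.270 TPM in wild type.

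Both loading factors were under 1 TPM in every wild-type library. Cdt1, which brings the MCM ring to the origin, measured 5.82, 2.03 and 3.79 TPM in the knockout and 0.793, 0.873 and 0.817 TPM in wild type. It is the member with the second largest fold change, 1.34 on the log2 scale (SE 0.30, adjusted p = 0.0937), and each knockout library was more than 2 times its wild-type mean of 0.828 TPM. Cdc6, the ATPase that acts with Cdt1, reached 1.93 TPM in knockout library 3 only, with 0.457 and 0.163 TPM in knockout libraries 1 and 2 and 0.123 to 0.208 TPM in wild type.

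Knockout library 3 had the highest level of each of the 6 genes of the MCM ring, the core of the helicase. Mcm7 measured 10.02, 10.9 and 11.8 TPM in the knockout and 4.16, 5.04 and 5.10 TPM in wild type. It was the MCM gene at nearly 1 level in the 3 knockout libraries, with a log2 fold change of 1.05 (SE 0.21, 95% interval 0.56 to 1.53, adjusted p = 0.0768). Mcm2 stood at 7.49, 6.004 and 9.39 TPM against 5.50, 4.58 and 5.65 TPM, with a narrow gap between the groups. For the others library 3 lay far above wild type and libraries 1 and 2 did not. Mcm6 measured 1.35, 1.32 and 13.9 TPM in the knockout and 2.08, 1.55 and 2.13 TPM in wild type, so libraries 1 and 2 were below every wild-type library. Mcm5 measured 1.03, 0.427 and 7.65 TPM against 1.12, 1.02 and 1.66 TPM. Mcm3 (2.54, 1.47 and 7.11 TPM against 1.04 to 1.89 TPM) and Mcm4 (3.20, 1.84 and 5.37 TPM against 1.52 to 2.09 TPM) had the same order, with knockout library 3 first, library 1 next and library 2 inside the wild-type range. Without knockout library 3 the log2 fold change turned to -0.40 for Mcm5 and -0.32 for Mcm6.

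Among the factors that activate the helicase, Gins1, a subunit of the GINS complex, was higher in all 3 knockout libraries. It measured 3.38, 5.40 and 5.003 TPM in the knockout and 1.499, 0.884 and 1.26 TPM in wild type (log2 fold change 1.33, SE 0.23, 95% interval 0.78 to 1.87, adjusted p = 0.0653). Its partners in the same complex did not share this. Gins4 was the most abundant of them at 11.4, 12.8 and 9.65 TPM against 11.2, 10.5 and 12.2 TPM, and its interval ran from -0.50 to 0.48. Gins2 (log2 fold change 0.21) and Gins3 (-0.08) overlapped between the groups as well. Cdc45, which joins MCM and GINS in the active helicase, measured 2.42, 1.95 and 6.51 TPM against 2.05, 1.88 and 3.04 TPM, so that only library 3 left the wild-type range. Mcm10, a factor that helps the helicase start, stayed under the filter but did not overlap, at 1.52, 0.657 and 2.198 TPM against 0.166, 0.274 and 0.419 TPM. The kinase gene Cdc7 reached 1.55 TPM in library 3 and 0.234 to 0.703 TPM in the other 5 libraries.

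The enzyme that starts each new strand joins 2 polymerase alpha subunits to 2 primase subunits, and these 4 genes split. Pola2, the regulatory polymerase subunit, measured 4.27, 3.03 and 3.66 TPM in the knockout and 1.73, 1.62 and 1.70 TPM in wild type (log2 fold change 0.78, SE 0.20, adjusted p = 0.122). Prim2, the large primase subunit, measured 5.67, 4.09 and 4.13 TPM against 2.33, 2.15 and 2.27 TPM (log2 fold change 0.78, SE 0.21, adjusted p = 0.143). Both were thus higher in all 3 knockout libraries, and their wild-type values lay close together. The catalytic subunits behaved otherwise. Prim1, the catalytic primase subunit, measured 1.32, 1.497 and 12.1 TPM against 4.08, 2.67 and 4.88 TPM, below wild type in knockout libraries 1 and 2 and far above it in library 3. Pola1, the catalytic polymerase, stood at 1.32, 0.910 and 2.58 TPM against 0.672, 0.779 and 1.00 TPM and overlapped.

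Of the polymerases that extend the strands, Pold2, the accessory subunit of polymerase delta, was the most abundant at 9.57, 16.2 and 13.4 TPM against 14.5, 15.9 and 13.6 TPM. Its groups overlapped fully (log2 fold change -0.19, 95% interval -0.75 to 0.38). The catalytic Pold1 overlapped too (log2 fold change 0.32). Pole, the catalytic subunit of the leading-strand polymerase epsilon, was under the filter at 0.195, 0.322 and 1.06 TPM against 0.162, 0.0671 and 0.160 TPM.

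Pcna, the sliding clamp that holds the polymerases on DNA, was the most abundant member in every library. It measured 56.4, 63.2 and 101 TPM (101.4) in the knockout and 43.0, 38.9 and 46.9 TPM in wild type. All knockout libraries lay above wild type, with library 3 highest (log2 fold change 0.72, SE 0.26, 95% interval 0.12 to 1.32, adjusted p = 0.252). Its loader, replication factor C, showed smaller differences. Rfc1, the large subunit, measured 13.5, 13.1 and 11.6 TPM against 9.91, 9.16 and 9.52 TPM. Rfc3 measured 9.46, 6.87 and 6.84 TPM against 5.24, 4.50 and 5.76 TPM. The other small subunits Rfc4 (4.88, 6.23 and 9.28 TPM against 4.57, 4.27 and 2.95 TPM) and Rfc5 (5.55, 4.90 and 7.70 TPM against 4.42, 4.38 and 4.89 TPM) were also higher without overlap. For Rfc5 the gap between the groups was only from 4.89 to 4.90 TPM. Rfc2 went the other way, at 7.49 to 8.98 TPM against 8.68 to 12.2 TPM, and overlapped.

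Fen1, the nuclease that trims the flaps of Okazaki fragments, measured 11.9, 8.86 and 14.5 TPM in the knockout and 6.203, 5.29 and 7.25 TPM in wild type (log2 fold change 0.80, SE 0.25, adjusted p = 0.210). The groups did not overlap. Lig1, the ligase that then seals the nicks, was high in library 3 alone, at 2.58, 1.72 and 7.26 TPM against 2.60, 1.46 and 2.17 TPM.

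Replication protein A, which coats single-stranded DNA in replication and in repair, has 3 subunits, and they differed. Rpa1, the large subunit, measured 26.7, 34.8 and 11.8 TPM in the knockout and 11.9, 11.04 and 11.1 TPM in wild type, so library 3 lay within the wild-type range. Rpa2 measured 12.0, 10.6 and 10.7 TPM against 4.81, 5.14 and 6.94 TPM, higher by about the same amount in the 3 knockout libraries (log2 fold change 0.88, SE 0.22, adjusted p = 0.127). Rpa3, the small subunit, was at 5.74 to 8.83 TPM against 8.35 to 9.95 TPM (log2 fold change -0.32, 95% interval -0.86 to 0.23).

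The enzymes of nucleotide supply were highest in knockout library 3. Rrm2, the small subunit of ribonucleotide reductase that is made in S phase, had the largest fold change of any member. It measured 10.02, 2.11 and 21.2 TPM in the knockout and 1.91, 1.28 and 1.94 TPM in wild type (log2 fold change 1.76, SE 0.64, 95% interval 0.28 to 3.24, adjusted p = 0.260). The knockout libraries differed widely, and library 2 lay just above wild type. Rrm1, the large subunit, measured 4.83, 5.39 and 15.3 TPM against 4.46, 4.99 and 5.70 TPM. Tyms, thymidylate synthase, measured 2.52, 1.46 and 5.64 TPM against 2.22, 2.94 and 2.44 TPM. For both of these the groups overlapped and library 3 alone was high.

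**Figure D3:**
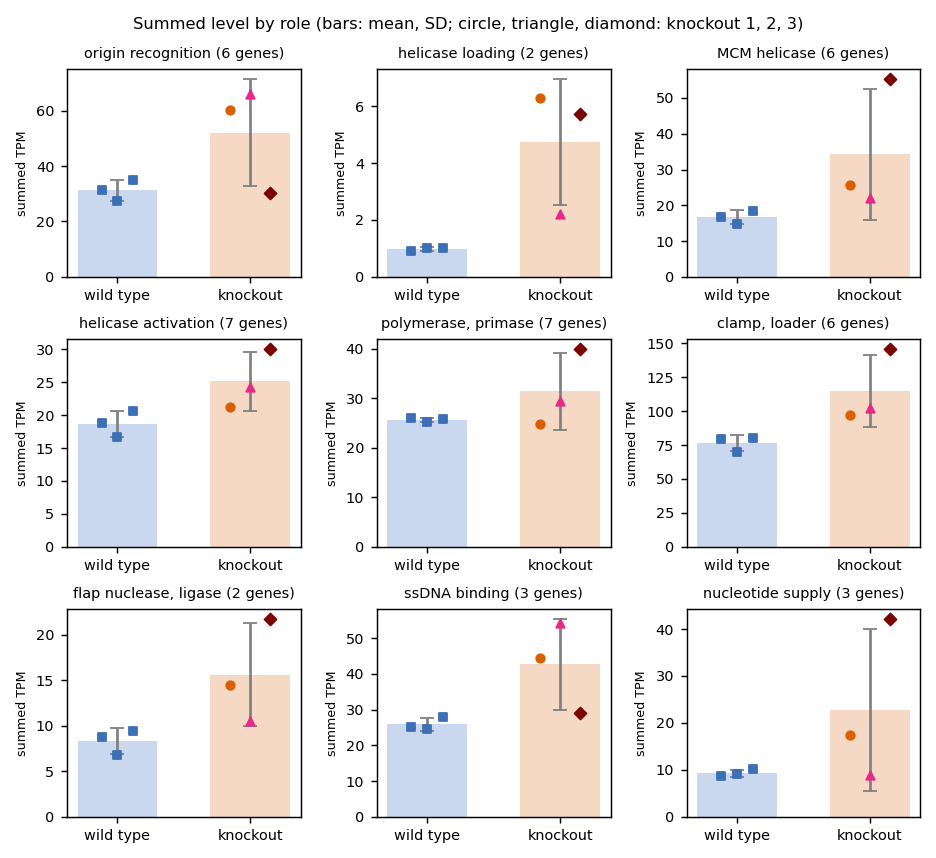
Summed TPM of the members of each role (y axis, from 0) in wild type and knockout. Bars are means, error bars SD over 3 libraries, squares wild-type libraries, and the circle, triangle and diamond knockout libraries 1, 2 and 3. Origin recognition summed to 60.4, 65.9 and 30.1 TPM in the knockout libraries and the MCM helicase to 25.6, 21.9 and 55.2 TPM.

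Summed by role, origin recognition and the MCM helicase differed in which library was high. The 6 origin recognition genes summed to 60.4, 65.9 and 30.1 TPM in knockout libraries 1, 2 and 3, against 31.5, 27.3 and 34.9 TPM in wild type. The 6 MCM genes summed to 25.6, 21.9 and 55.2 TPM, against 16.8, 14.8 and 18.5 TPM. Nucleotide supply summed to 17.4, 8.96 and 42.1 TPM, against 8.60, 9.21 and 10.1 TPM. The single-strand binding genes summed to 44.4, 54.3 and 29.1 TPM against 25.2, 24.5 and 28.004 TPM, and of the 3 only Rpa1 had this order. The clamp and its loader summed to 97.3, 102 and 146 TPM (102.2 and 145.7), above the wild-type range of 69.8 to 80.1 TPM in all 3 knockout libraries.

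Leaving out knockout library 3 changed which members passed, along with most of the table. With 2 knockout libraries against 3, 16 of the 37 members passed limma's test, 15 higher and 1 lower. That share is near the background, since 45.5% of all genes passed in that fit, 33.8% higher and 11.7% lower. The member with the smallest adjusted p there was Orc3 (log2 fold change 1.31, SE 0.14, adjusted p = 0.000882), followed by Rpa1 (1.35, SE 0.16, adjusted p = 0.00103) and Mcm7 (0.99, SE 0.15, adjusted p = 0.0026). Prim1 was the lower 1 (-0.99, SE 0.22, adjusted p = 0.0111). Among members high in library 3, Rrm1 (0.02, adjusted p = 0.932), Lig1 (0.04, adjusted p = 0.898) and Mcm3 (0.21, adjusted p = 0.509) had small fold changes in that fit. Others kept larger ones, with 1.12 for Rrm2 (adjusted p = 0.0955), 0.65 for Fen1 (adjusted p = 0.0279) and 0.47 for Pcna (adjusted p = 0.0323).

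**Figure D4:**
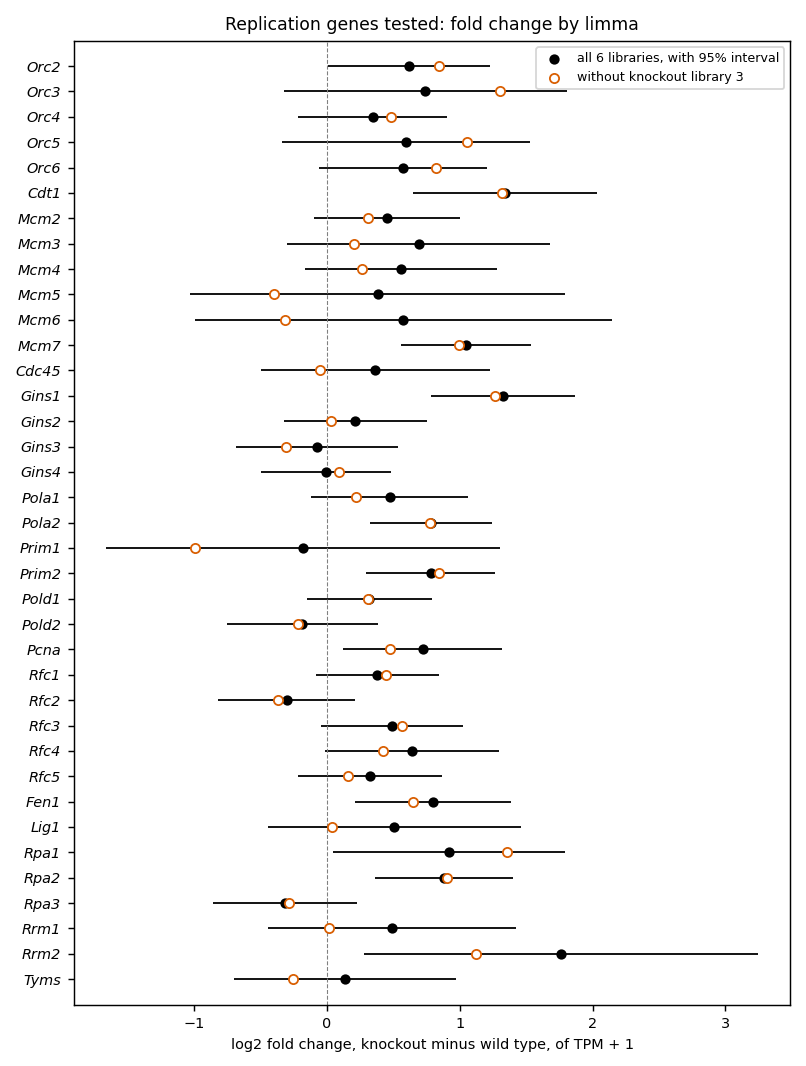
Log2 fold change of knockout minus wild type (x axis, TPM + 1) for the 37 members tested. Black points and lines are limma's estimate and 95% interval from all 6 libraries, open circles the estimate without knockout library 3. Orc3 moves from 0.74 to 1.31 and Mcm6 from 0.58 to -0.32, while Gins1 (1.33 and 1.27) and Mcm7 (1.05 and 0.99) stay nearly in place.

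Other replication genes, a list of 35 that holds further polymerase subunits, fork proteins and nucleotide enzymes, was less shifted, with a median log2 fold change of 0.15. Of the 25 tested, 0 passed, while 5 were higher and 2 lower at an unadjusted p under 0.05, beside 4.99% and 10.5% of all genes. Tk1, the thymidine kinase of S phase, measured 2.77, 2.39 and 14.8 TPM against 1.69, 1.30 and 0.713 TPM, with all knockout libraries higher and library 3 far ahead. Dbf4, the activator of the Cdc7 kinase, measured 8.89, 3.33 and 4.23 TPM against 1.99, 1.79 and 1.73 TPM (log2 fold change 1.10, SE 0.32, adjusted p = 0.170). Pole4, a small subunit of polymerase epsilon, was lower at 10.7, 6.69 and 17.3 TPM against 20.6, 16.9 and 21.3 TPM, and overlapped. Knockout library 3 was the highest library for 17 of the 35 genes, beside 6.31% of genes with any signal, and for 8 of the 25 tested, beside 3.73%.

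The transcription factors that govern replication genes differed between the knockout libraries. Of 14 tested regulators of the E2F and RB families, 0 passed. At an unadjusted p under 0.05, 2 were higher (Lin9 and Lin54) and 1 lower (E2f5), beside 4.99% and 10.5% of all genes tested. E2f1, an activating E2F, measured 2.62, 1.05 and 7.58 TPM against 1.08, 1.499 and 1.19 TPM, high in library 3. Rbl2 (p130), which represses E2F targets in resting cells, measured 49.7, 61.1 and 10.3 TPM against 15.6, 14.2 and 12.7 TPM, high in libraries 1 and 2 and lowest of all in library 3, and 45.9% of genes had libraries 1 and 2 above the other 4. Tfdp2, a partner of E2F proteins, had the order of Rbl2, at 13.4, 14.1 and 2.75 TPM against 4.08, 3.53 and 3.13 TPM.

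S phase cyclins and kinase inhibitors held 6 tested genes, of which 0 passed. At an unadjusted p under 0.05, 2 were higher, Ccne1 and Cdk2, beside 4.99% of all genes tested. Ccne1, the cyclin that starts S phase, measured 2.002, 1.35 and 3.04 TPM against 0.474, 0.489 and 0.583 TPM (log2 fold change 1.01, SE 0.23, adjusted p = 0.0937). Its groups were well apart. Cdkn1a, the inhibitor p21 that binds both cyclin kinases and Pcna, measured 31.2, 4.46 and 1.55 TPM against 1.37 to 1.52 TPM, which is high in library 1 and close to wild type in library 3. Ccna2, the cyclin of S and G2 phase, measured 1.03, 0.297 and 9.48 TPM against 0.316 to 1.22 TPM.

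In the list of 8 chromatin assembly genes at the fork, of which 6 were tested, 2 passed, beside 0.39% of all genes tested. Uhrf1, which carries DNA methylation through replication, rose to 17.4, 16.4 and 12.7 TPM from 1.74, 2.09 and 2.59 TPM (log2 fold change 2.39, adjusted p = 0.014). Chaf1b, a subunit of the chaperone that brings histones to Pcna, rose to 4.23, 5.42 and 6.64 TPM from 1.1504, 1.18 and 1.36 TPM (log2 fold change 1.51, adjusted p = 0.0451). Neither passed once any wild-type library was left out, where 0 or 1 genes of the whole table passed. All knockout libraries lay above all wild-type libraries for both, as for the members Mcm7, Gins1, Pola2, Prim2 and Rpa2.

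Mitosis genes separated knockout library 3 from all others. The 20 listed genes summed to 17.3, 9.17 and 102 TPM (101.6) in knockout libraries 1, 2 and 3, against 10.3, 10.9 and 13.2 TPM in wild type. Library 3 was the highest for 19 of the 20, beside 6.31% of genes with any signal, the exception being Bub1b, a spindle checkpoint kinase, at 4.89, 1.29 and 3.12 TPM against 0.474 to 0.763 TPM. Only 5 mitosis genes reached the filter and 0 passed, with 2 higher at an unadjusted p under 0.05. Mki67, the marker of cycling cells, measured 0.890, 0.504 and 10.3 TPM against 0.655 to 0.743 TPM. Cdc20, which triggers anaphase, measured 1.06, 0.429 and 10.98 TPM against 0.730 to 1.10 TPM. The mitotic kinase Plk1 was higher in all knockout libraries, at 1.26, 1.23 and 3.06 TPM against 0.421 to 0.813 TPM.

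Excision repair uses Pcna and replication protein A as replication does, and 0 of its 19 genes tested passed. The 20 listed genes summed to 337, 332 and 157 TPM (337.0, 332.3 and 156.9) in the knockout against 208, 183 and 181 TPM in wild type. Knockout library 3 was the highest for 1 of them, Lig3, the ligase of base excision repair. At an unadjusted p under 0.05 there were 2 higher and 1 lower, beside 4.99% and 10.5% of all genes tested. Xpa, a damage recognition protein, measured 20.6, 19.6 and 5.74 TPM against 7.88, 4.65 and 5.63 TPM. Ddb1 stood at 135, 149 and 57.5 TPM against 68.2, 60.1 and 56.9 TPM, and Ung, which removes uracil from DNA, at 15.8, 13.1 and 6.73 TPM against 5.80, 6.45 and 6.44 TPM. For these 3 knockout libraries 1 and 2 lay above the other 4, which is the order of 45.9% of all genes tested.

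**Figure D5:**
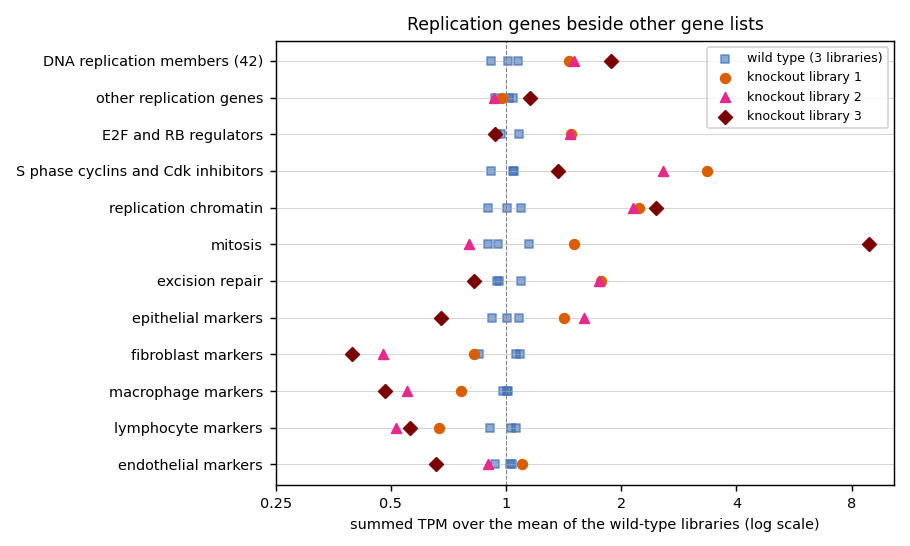
Summed TPM of each list divided by its wild-type mean (x axis, log scale), with squares for wild-type libraries and the circle, triangle and diamond for knockout libraries 1, 2 and 3. The replication members stand at 1.46, 1.501 and 1.88, mitosis at 1.505, 0.80 and 8.86, and excision repair at 1.77, 1.74 and 0.82.

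Markers of other cell types were summed in each library, and any link between these sums and the replication genes was not tested. The 8 lymphocyte markers summed to 2.12 to 2.75 TPM in the knockout and 3.73 to 4.37 TPM in wild type, with knockout library 3 at 2.31 TPM. The 6 macrophage markers summed to 120, 86.7 and 75.8 TPM (119.9 in library 1) against 154 to 159 TPM, and the 6 fibroblast markers to 268, 155 and 129 TPM against 277 to 355 TPM. The 6 endothelial markers summed to 24.7, 20.0 and 14.7 TPM (20.04 in library 2) against 21.0 to 23.2 TPM. Of the 6 red cell markers, Hba-a1, Hba-a2, Hbb-b1 and Hbb-b2 were listed at 0 in every library, and the sum was 1.56 to 3.88 TPM against 4.44 to 6.90 TPM. For each of these 5 lists library 3 lay below every wild-type library, as it did for 66.9% of single genes tested. Knockout libraries 1 and 2 both lay below as well for all but the endothelial list, as they did for 26.7% and 27.9% of single genes. The 6 epithelial markers summed to 1489, 1676 and 709 TPM against 964 to 1134 TPM, also lowest in library 3. Krt18 was the most abundant of them in every library, at 907, 1059 and 272 TPM against 368 to 411 TPM. Krt7 was lower in all 3 knockout libraries, at 93.5, 139 and 108 TPM against 185 to 239 TPM. So was Krt19, at 2.85, 1.27 and 3.995 TPM against 7.71 to 11.6 TPM. Neither Krt7 nor Krt19 passed (adjusted p = 0.099 and 0.0846). Epcam, Cdh1, Krt8 and Krt18 overlapped between the groups. The 8 acinar (secretory) markers summed to 112194, 144698 and 86518 TPM against 76654 to 86707 TPM. Prol1 held most of each sum, at 110174, 144115 and 85790 TPM against 68796 to 85772 TPM. Dcpp2 varied widely within both groups, at 793, 7.06 and 1.03 TPM against 4939, 45.9 and 1.86 TPM. In bulk samples more cells of a type and more RNA per cell cannot be told apart, so these levels do not give a share of cells in S phase.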

How the data were processed

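RNA-seq was measured in 6 libraries. Per the labels, the authors deposited TPM, scaled for gene length and library size, and each column summed to 1000000. The submitters' processing notes list featureCounts 1.5.1, DESeq2 1.20.0, TopHat2 2.1.1 and Bowtie2 2.2.6, with the mm9 genome. The annotation, the strand setting and the depth are not given in the sources used here, and without depth no counting interval or floor can be stated.

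Genotype labels set the groups, and replicate numbers follow accession order. Values were transformed to log2(TPM + 1), which understates the change of low genes. A filter of 1 TPM in 3 or more libraries left 11268 of 23366 genes for limma 3.58.1 (R 4.3.3, mean-variance trend, two-sided, Benjamini-Hochberg over all genes tested, threshold 0.05), and every adjusted p is from this test. The procedure was run on simulated data with noise drawn independently for each gene and library. That setting holds no shift of a whole library, such as the 1 seen in knockout library 3, so it does not vouch for the p-values here. An exact permutation test of 3 libraries against 3 cannot go below p = 0.1, so none is given. The labels do not tie libraries to mice, and the spread behind each p-value, between these 6 libraries, may be technical. Members and lists were chosen with earlier results of these data known. Every member is named. Per-library values are given for tested members whose groups do not overlap and for the most abundant of each role, and other members were added after their values were seen. From each pathway, regulator, mitosis, chromatin and repair list the genes that passed, or otherwise up to 3 with the largest fold change, are named. Marker lists are given by sums and members at 0. Mki67, Lig3, Prol1, Dcpp2, the single epithelial markers and the marker genes that passed were added after their values were seen. Adgre1 was found under an older symbol. The alternatives were other pseudocounts (0.1 and 0.5 TPM), filters (none and 5 TPM), scalings, moderation, array weights, a replicate block and leaving out each library. Plots used Python 3.11.15 with matplotlib 3.10.9.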

Additional observations from a re-analysis of the deposited data

How the results depend on the processing

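Over the 17 alternatives the members' median log2 fold change kept its sign and stayed between 0.31 and 0.63. It was lowest without knockout library 3 (0.31, beside 0.26 over all genes) and highest with a pseudocount of 0.1 TPM. The number of members passing limma's test was 0 in 15 alternatives, 15 with array weights and 16 without knockout library 3 (over the fits without 1 library, 0 to 16). For all genes the number passing was 44, and it became 25 with a pseudocount of 0.1 TPM, 11 with no filter, 29 with the 5 TPM filter, 72 with quantile normalization, 106 with rescaling without the 50 most abundant genes, and 4822 with array weights. Leaving out 1 library at a time gave 0 to 5127, with 5127 without knockout library 3, 16 and 11 without knockout libraries 2 and 1, and 1, 0 and 0 without wild-type libraries 1, 2 and 3 (879, 1024 and 1020 at an unadjusted p under 0.05). Trp63 passed with array weights (-0.92, adjusted p = 0.0239), and over the fits without 1 library it ran from -0.96 to -0.55, passing without knockout library 3 (-0.85, adjusted p = 0.0395). The ratio of summed TPM ran from 1.48 to 1.69 without 1 library. Of 609 single-member values, 561 kept direction and call, 31 passed that had not, and 17 changed sign. With array weights the changed values were -0.41 for Mcm5, -0.22 for Mcm6, -0.065 for Cdc45, -0.29 for Tyms and 0.091 for Gins4, and with quantile normalization 0.22 for Gins3. Without 1 library, the first bound being that without knockout library 3, Mcm5 ran from -0.40 to 0.90, Mcm6 from -0.32 to 1.03, Cdc45 from -0.051 to 0.62 and Tyms from -0.26 to 0.46. Prim1 ran from -0.99 without it to 0.25 without knockout library 1, Gins3 from -0.31 to 0.14 likewise, Gins4 from -0.096 without knockout library 2 to 0.090 without library 3, and Pold2 from -0.34 without library 2 to 0.0062 without library 1. The cause of these changes was not tested. The labels give no shared replicate numbers. With a replicate block for libraries with neighbouring index numbers, 31 genes and 0 members passed. Deviations from the group means correlated at 0.17, 0.23 and 0.08 within the 3 pairs, and each library correlated best with its own pair, which is a hint from the data and not the design. Sequencing depth is unknown, so low members such as Orc1 and Cdc6 have no detection limit.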
